A study of Mus musculus with 16 samples.

Results

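The comparison set the endothelial cells (EC) of the mouse yolk sac at E10.5 against those at E9.5, with 2 RNA-seq libraries at each stage, 4 of the 16 libraries of the series. Conceptuses came from superovulated B6C3F1/J females mated with males homozygous for the Runx1-GFP allele Runx1tm4Dow, so all cells, at both stages, inherited the reporter allele from the father. Somite counts gave the stage, and abnormal conceptuses were left out. Yolk sacs were separated from the embryo, the vitelline vessels staying with the embryo, digested with collagenase, and stained for sorting. EC were gated as Runx1-GFP-negative and CD31-positive without kit, CD41 or CD45; the other libraries held EC of the embryo, sorted by the same gate from the aorta-gonad-mesonephros region with its vitelline and umbilical vessels, and hemogenic endothelium (HE) of both sites, which carried the GFP signal and CD31 but little kit, and neither CD41 nor CD45. Cells went into Trizol-LS or a serum buffer, and which library had which is not stated. Libraries are named here by stage and replicate number, and the labels do not say that replicates came from separate litters or sorts, and the tests below therefore rest on the variation among these libraries alone, part or all of which may be technical. Genes with an FPKM (a fragment count divided by transcript length and by the mapped fragments, as the authors deposited it) of at least 1 in at least 2 of the 4 libraries were tested, leaving out 65 ribosomal pseudogenes, which made 12252 of the 33531 genes in the table.

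The yolk sac wall has an inner mesoderm layer with the vessels and blood islands, a mesothelium, and an outer visceral endoderm that absorbs maternal material and secretes plasma proteins before the liver takes over. Its endothelium lines the plexus that carries the first primitive red cells, and in these stages it borders definitive progenitors, macrophages and megakaryocytes that arise in the same wall. Fetal growth programs in many tissues include the RNA-binding proteins Lin28a and Lin28b, which block maturation of let-7 microRNAs, and the chromatin protein Hmga2, a let-7 target.

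The summed FPKM lay between 667669 and 771814 in the 4 libraries and the number of genes at 1 FPKM or more between 11984 and 12057. E10.5 replicate 1 stood apart in its low values: 140 tested genes were listed at 0 in it, against 17 to 20 in the other 3, and the left-out pseudogenes had a median of 0.511 FPKM there against 4.58 to 9.21. E9.5 replicate 1 stood apart in its cell markers, with the highest endothelial and the lowest mesenchymal and globin levels of the 4. Libraries of the same stage correlated at r = 0.964 (E9.5) and 0.959 (E10.5) over the tested genes on the log2 scale, and libraries of different stages at 0.929 to 0.967, so these 2 within-stage values lay inside the range between stages. The main counts and calls below are also given without these libraries where they change.

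Endothelial genes were high in all 4 libraries, together with genes of other yolk sac layers: the summed FPKM of visceral endoderm markers was above that of the general endothelial list in each of the 4. Pecam1, the CD31 gene used in the sort, had an FPKM of 192 and 104 at E9.5 and of 165 and 138 at E10.5. Cdh5, the cadherin of endothelial junctions, had 474 and 222 at E9.5 and 356 and 251 at E10.5. Both genes overlapped between stages, with the 2 E9.5 libraries farther apart than the 2 stages. Runx1, the reporter locus, stood at 2.37 and 2.09 FPKM at E9.5 and 2.60 and 2.04 at E10.5. Ptprc, the CD45 gene, stayed under 1 FPKM in every library, at 0.0636 and 0.0372 at E9.5 and 0.332 and 0.121 at E10.5, and was not tested. Itga2b, the CD41 gene, was read at 58.5 and 31.5 FPKM at E9.5 and at 42.1 and 38.6 at E10.5 although its protein was gated out, and Kit at 8.03, 2.83, 3.66 and 2.70 in the same order.

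None of the 33 general endothelial genes passed the test, and their median difference was -0.09 on the log2(FPKM + 1) scale against -0.13 for all tested genes. The summed FPKM of the list was 6914 and 3776 at E9.5 and 5536 and 4906 at E10.5, so both E10.5 libraries lay between the 2 E9.5 libraries. The list's median turned with the E9.5 library left out, to 0.42 without replicate 1 and to -0.52 without replicate 2. Vwf, the clotting factor carrier stored by endothelium and megakaryocytes, stood at 12 and 6.27 FPKM at E9.5 and 26.5 and 29.6 at E10.5 (difference 1.58 ± 0.48 SE) and did not pass (adjusted p = 0.118). Erg, an endothelial transcription factor, had 55.2 and 26.1 FPKM against 16.7 and 23.1 (-0.92 ± 0.54, adjusted p = 0.377). Of 20 arterial, 9 venous, 13 sinusoidal and lymphatic and 11 flow-response genes tested, none passed. Cxcr4, a chemokine receptor of arterial tip cells, had 7.77 and 5.24 FPKM at E9.5 and 18.0 and 19.5 at E10.5 (1.41 ± 0.47, adjusted p = 0.149).

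Across all tested genes 194 passed at an adjusted p under 0.05 in limma's moderated test, 1.58% of those tested, with 141 higher at E10.5 (1.15%) and 53 lower (0.433%). In 131 of the higher and 24 of the lower genes the difference was at least 1 on the log2 scale. The libraries of all 194 did not overlap between stages, a property that 14.8% of all tested genes had in the higher and 30.7% in the lower direction. The median difference of all tested genes was -0.13, and 4588 of the 12252 had a difference above 0. With the libraries set to a common median the split was 206 higher and 25 lower, with quantile normalisation 229 and 45, with each library rescaled to the same summed FPKM 73 and 11, and with library quality weights 63 and 9. The calls moved from 29 without E10.5 replicate 1 to 501 without E10.5 replicate 2, the latter with 186 higher and 315 lower, and stood at 53 without E9.5 replicate 1. Of the called genes, 47 passed the filter through 1 stage only, 39 of the higher and 8 of the lower.

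**Figure D1:**
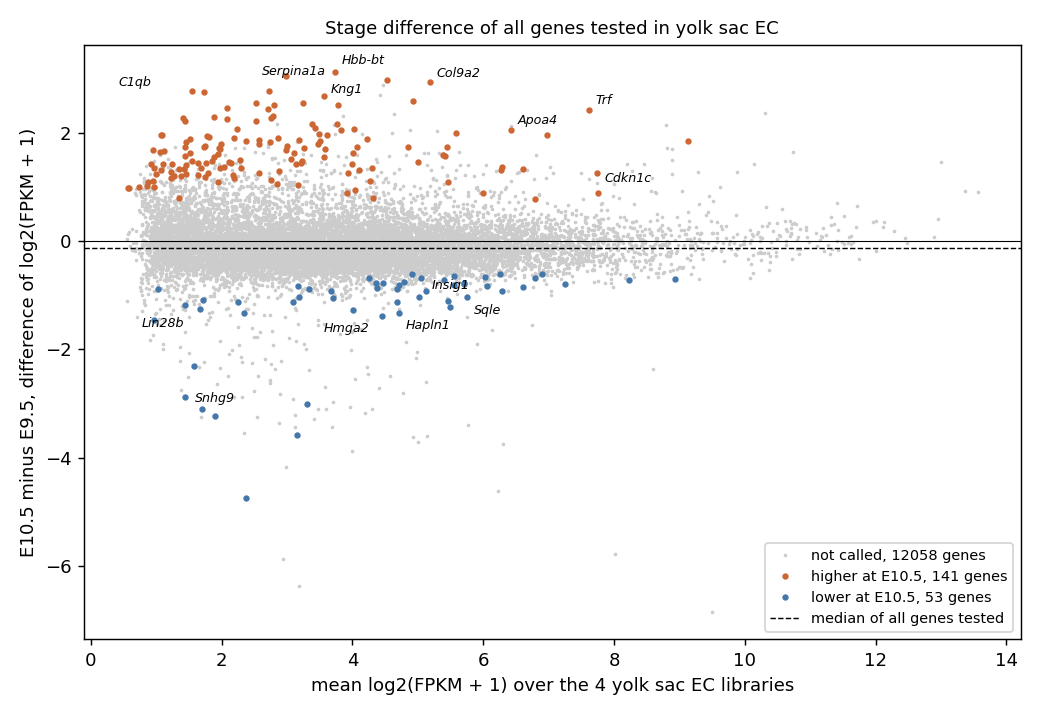
Each point is a tested gene, with its mean log2(FPKM + 1) over the 4 yolk sac EC libraries on the x axis and the E10.5 minus E9.5 difference of log2(FPKM + 1) on the y axis. The 141 genes called higher reach 3.13 (Hbb-bt), the 53 called lower include Hmga2, Hapln1 and Sqle, and the dashed line marks the median of all tested genes at -0.13.

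Genes of secreted plasma proteins, which the yolk sac's visceral endoderm and later the liver make, held more called rises than any other list examined. Their list was written after values had been seen, so this rank is not a test. Trf, the iron carrier transferrin, had an FPKM of 97.5 and 72.0 at E9.5 and of 496 and 418 at E10.5. Both E10.5 libraries lay above both E9.5 libraries, with a mean 5.39 times higher (2.43 ± 0.29 SE on the log2 scale, adjusted p = 0.00178). Apoa4, an apolipoprotein of lipid-absorbing epithelia, rose from 47.6 and 35.7 to 194 and 157 FPKM (2.05 ± 0.27, adjusted p = 0.00293), a call lost without E10.5 replicate 1. Serpina1b, an alpha-1-antitrypsin gene, rose from 12.6 and 10.46 to 86.6 and 62.6 FPKM (2.58 ± 0.29, adjusted p = 0.00176), and its copy Serpina1a from 1.68 and 1.38 to 19.7 and 13.2 (2.77 ± 0.23, adjusted p = 0.000292). Reads of the near-identical Serpina1 copies can be split among them in ways the sources used here do not give, and their separate levels are uncertain.

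Protease and clotting factors followed the same pattern. Kng1, the precursor of bradykinin, rose from 3.65 and 3.68 to 30.7 and 27.2 FPKM (2.68 ± 0.28, adjusted p = 0.00119). F2, prothrombin, rose from 7.10 and 4.93 to 30.8 and 25.0 FPKM (2.05 ± 0.25, adjusted p = 0.00178), and Plg, plasminogen, from 6.18 and 4.37 to 25.5 and 21.1 (1.96 ± 0.31, adjusted p = 0.00961). Serpind1, the thrombin inhibitor heparin cofactor II, rose from 3.07 and 2.43 to 13 and 13 FPKM (adjusted p = 0.00511). Kng2, a second kininogen gene, stood under 1 FPKM at E9.5 (0.271 and 0.155) and at 4.91 and 4.74 at E10.5. Kng2 thus passed the filter through E10.5 only and could only be called higher. In each of these genes the 2 E10.5 libraries were close to each other and several times above E9.5.

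Of the 63 plasma protein genes in the table, a list written after values had been seen, 40 were tested. Of these 18 were called higher, against 1.15% of all tested genes, and none lower, with a median difference of 1.62. Because the list was chosen with values known, its count beside that share is a description and not a test. Of the 40, 8 passed the filter through 1 stage only, and any that passed through E10.5 alone could only be called higher. The other 23 were too low in these libraries, among them Alb, serum albumin, at 0.0513 and 0.0719 FPKM at E9.5 and 0.368 and 1.51 at E10.5. With only the yolk sac EC libraries in the fit, 9 of the 40 were called higher. The count of 18 was 13 without either E9.5 library, 9 without E10.5 replicate 1 and 17 without E10.5 replicate 2; with a pseudocount of 0.1 it was 5. Trf, Serpina1a, Serpina1b, Kng1, Kng2 and F2 remained called without any 1 of the 16 libraries, while the calls of Plg, Ambp and Serpind1 were lost without E10.5 replicate 1.

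Among the largest rises outside the plasma protein list, picked by size and not as a group, was Cebpa, a transcription factor of hepatocytes, fat and myeloid cells. It was at 0.799 and 0.8 FPKM at E9.5 and at 10.49 and 7.56 at E10.5 (2.46 ± 0.27, adjusted p = 0.00159). Hgd and Haao, enzymes of tyrosine and tryptophan breakdown, were also called, with differences of 2.25 and 2.16. Ttc36, a tyrosine-metabolism protein of liver and kidney, was nearly absent at E9.5, at 0.0587 and 0.182 FPKM, and read 7.51 and 5.75 at E10.5 (2.76 ± 0.23, adjusted p = 0.000292). Cebpa and Ttc36 passed the filter on low values through E10.5 only and could only be called higher. Hsd3b6, a steroid dehydrogenase, and Mgst2, a microsomal glutathione transferase, rose by 2.52 and 2.54 on the log2 scale, and both calls were lost when either E9.5 library or E10.5 replicate 1 was left out.

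Visceral endoderm markers were present in these sorted libraries at both stages, and the list shares 14 of its tested members with the plasma protein list. Of 36 listed markers 34 were tested, 30 differed by more than 0, and 2 were called (Trf and Apoa4), with a median of 0.81; without E10.5 replicate 1 the count was 1. Of the 20 tested members that are not in the plasma protein list 16 were above 0 and none was called (median 0.46). Among all tested genes 1.15% were called higher. Of the 26 tested plasma protein genes that are not in the visceral endoderm list 16 were called higher. Absence from that list does not mean that the layer lacks the gene, and the plasma protein list was written after values had been seen. The summed FPKM of the visceral endoderm markers was 7883 and 6351 at E9.5 and 14366 and 13350 at E10.5, with no defining marker at 0 in any of the 4 libraries except Ahsg in E9.5 replicate 2. Afp, alpha-fetoprotein, a carrier protein the layer secretes, had 646 and 478 FPKM at E9.5 and 2916 and 2838 at E10.5 (2.37, adjusted p = 0.185). The spread behind this p-value was pooled over all 16 libraries. It includes Afp at 3.41 and 17.5 FPKM in E9.5 embryo EC and at 1.63 and 17.0 in E10.5 embryo HE. The missed threshold therefore does not show that Afp was unchanged in yolk sac EC. Cubn and Amn, the endocytic receptor pair of the layer's absorbing surface, had 61.6 and 32.8 against 83.5 and 59.8 FPKM and 76.6 and 52.8 against 222 and 114, and neither passed. Epcam and Cdh1, surface proteins of epithelia, were at 12.2 and 7.61 against 15.6 and 16.6 FPKM and at 13 and 7.90 against 21.3 and 13.6. Sox17 and Dab2, which endothelium also expresses, differed by -0.09 and -0.19. The part of visceral endoderm RNA in the rise of the plasma protein genes was not tested; in bulk samples more cells of a type and more RNA per cell cannot be told apart.

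**Figure D2:**
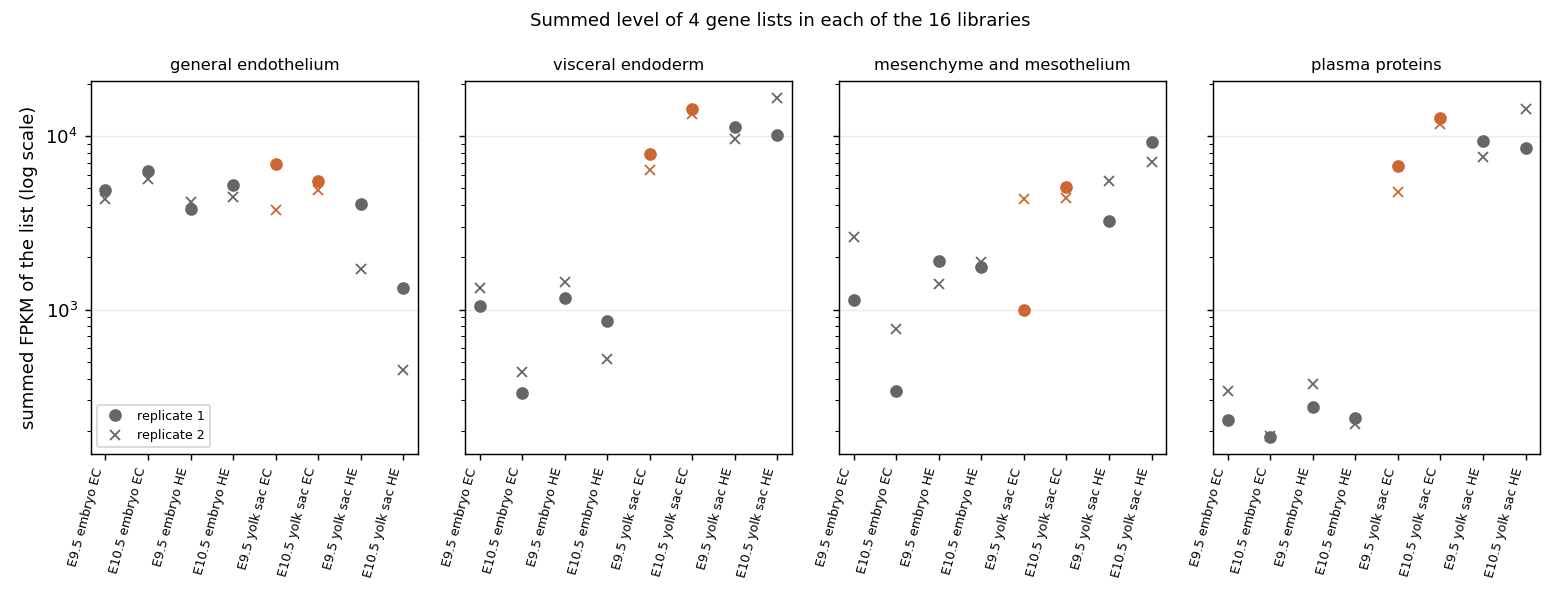
Points give the summed FPKM of 4 gene lists (log scale) in each of the 16 libraries, circles for replicate 1 and crosses for replicate 2, with yolk sac EC in orange. The visceral endoderm sum was 7883 and 6351 in the E9.5 and 14366 and 13350 in the E10.5 yolk sac EC libraries. In embryo EC it was 1045 and 1331 at E9.5 and 330 and 438 at E10.5. The mesenchyme sum was 999 in yolk sac EC E9.5 replicate 1 against 4331 to 5085 in the other 3 yolk sac EC libraries.

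Blood-cell genes made a second group of rises, all from low levels. Hbb-bt, an adult beta-globin, was at 1.73 and 6.45 FPKM at E9.5 and at 29.3 and 50.2 at E10.5. Both E10.5 libraries lay above both E9.5 libraries (3.13 ± 0.57, adjusted p = 0.0206), and the call was lost without E9.5 replicate 1, E10.5 replicate 1 or E10.5 replicate 2. Its neighbour Hbb-bs, which it resembles so closely that reads may be shared, had 13.2 and 32.2 against 42.3 and 75 FPKM and did not pass (adjusted p = 0.217). The adult alpha-globins Hba-a1 and Hba-a2 differed by 1.65 and 2.14 and did not pass either, with E9.5 replicate 1 the lowest library in both.

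The embryonic globins were far more abundant, and none passed. Hbb-y, an embryonic beta-globin, had 5771 and 13561 FPKM at E9.5 and 12437 and 22129 at E10.5 (0.91 ± 0.73, adjusted p = 0.517), and Hbb-bh1 had 4518 and 12927 against 12466 and 16901, both with overlapping stages. Hba-x, the embryonic alpha-globin, had 3182 and 7600 FPKM at E9.5 and 14005 and 13031 at E10.5, without overlap (1.46 ± 0.68, adjusted p = 0.276). Hbb-bh0 was listed at 0 in E10.5 replicate 1 beside 5216, 11516 and 4482 FPKM in the other 3, a value that may be a failed estimate. None of 25 erythroid genes passed, although 24 of the 25 had differences above 0 (median 0.58); the summed level of the list was 261 and 494 at E9.5 and 634 and 548 at E10.5. Globins together took 2.90% and 6.18% of the summed FPKM at E9.5 and 6.38% and 7.88% at E10.5.

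Macrophage genes that were nearly absent at E9.5 were measurable at E10.5. C1qb, a chain of complement C1q made by macrophages, was at 0.291 and 0.265 FPKM at E9.5 and at 7.36 and 7.88 at E10.5 (2.75 ± 0.41, adjusted p = 0.00846). C1qa, another of its chains, rose from 0.0385 and 0.120 to 3.52 and 2.87 FPKM, and C1qc, the last, from 0.0960 and 0.0669 to 2.11 and 2.87. Csf1r, the receptor for macrophage colony-stimulating factor, rose from 0.629 and 0.510 to 2.52 and 2.52 FPKM (1.17 ± 0.22, adjusted p = 0.0233). All 4 passed the filter through E10.5 only and could only be called higher, so their number among the 7 tested genes of the list says nothing beside the 1.15% of all tested genes. Of the 19 listed macrophage genes 12 were too low to test, and Cd163, Lyz1 and Ms4a7 were at 0 in all 4 libraries. The list's summed level was 157 and 70.1 at E9.5 and 109 and 105 at E10.5, most of it from Mrc1, which endothelium of this tissue can express, at 145, 62.1, 72.6 and 65.0 FPKM. None of the 4 stayed called without E10.5 replicate 1 or without E9.5 replicate 1.

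A few platelet-lineage and general blood genes were called. Ppbp, a chemokine of platelet granules, rose from 0.697 and 0.650 to 8.76 and 5.90 FPKM (2.29 ± 0.27, adjusted p = 0.00176), and this call remained without any 1 library. Gp9 and Treml1, surface proteins of platelets, and Thbs1, a matrix protein also made by stroma, were the other 3 of 18 tested megakaryocyte genes called, against 1.15% of all tested genes called higher. Ppbp, Gp9, Treml1 and, among general blood genes, Cd52 passed the filter through E10.5 only and could only be called higher. In the megakaryocyte list 6 tested genes passed through 1 stage only, and in the general blood list 3. The counts of calls in these 2 lists therefore say little beside the 1.15% of all tested genes. The count of 4 was 2 without either E9.5 library and 1 without E10.5 replicate 1. Pf4, platelet factor 4, was at 13 and 7.64 FPKM at E9.5 and at 56.6 and 53.1 at E10.5 and narrowly missed the threshold (2.35, adjusted p = 0.0532). Of 14 general blood genes tested 3 were called, Coro1a, Cd52 and Dok2, and 1 without E9.5 replicate 1 or without E10.5 replicate 1. Cd52, a small leukocyte surface glycoprotein, rose from 0.224 and 0.227 to 2.78 and 2.96 FPKM. The summed level of the megakaryocyte list was 242 and 155 at E9.5 and 286 and 276 at E10.5, and that of the general blood list was 249 and 222 against 242 and 261. The part of blood-cell RNA in these rises was not tested.

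Genes of lipid handling in capillaries gave 1 call among 19 tested, beside 1.15% of all tested genes called higher. Gpihbp1, the endothelial protein that carries lipoprotein lipase to the vessel lumen, rose from 4.37 and 3.10 to 10.4 and 10.6 FPKM (1.29 ± 0.26, adjusted p = 0.0352). Fabp4, a fatty acid carrier of capillary endothelium, fat cells and macrophages, was at 8.59 and 5.97 FPKM at E9.5 and at 44.3 and 79.3 at E10.5. Its E10.5 libraries lay well above both E9.5 libraries and the mean was 8.49 times higher, but the difference of 2.88 ± 0.67 missed the threshold (adjusted p = 0.0571). The call of Gpihbp1 was lost without any 1 of the 4 libraries. Angptl4, a lipase inhibitor, had 5.77 and 7.77 against 13.3 and 13 FPKM and an adjusted p of 0.0571 as well. Cd36 and Lpl, the fatty acid translocase and lipoprotein lipase, differed by -0.49 and -0.24 and did not pass.

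**Figure D3:**
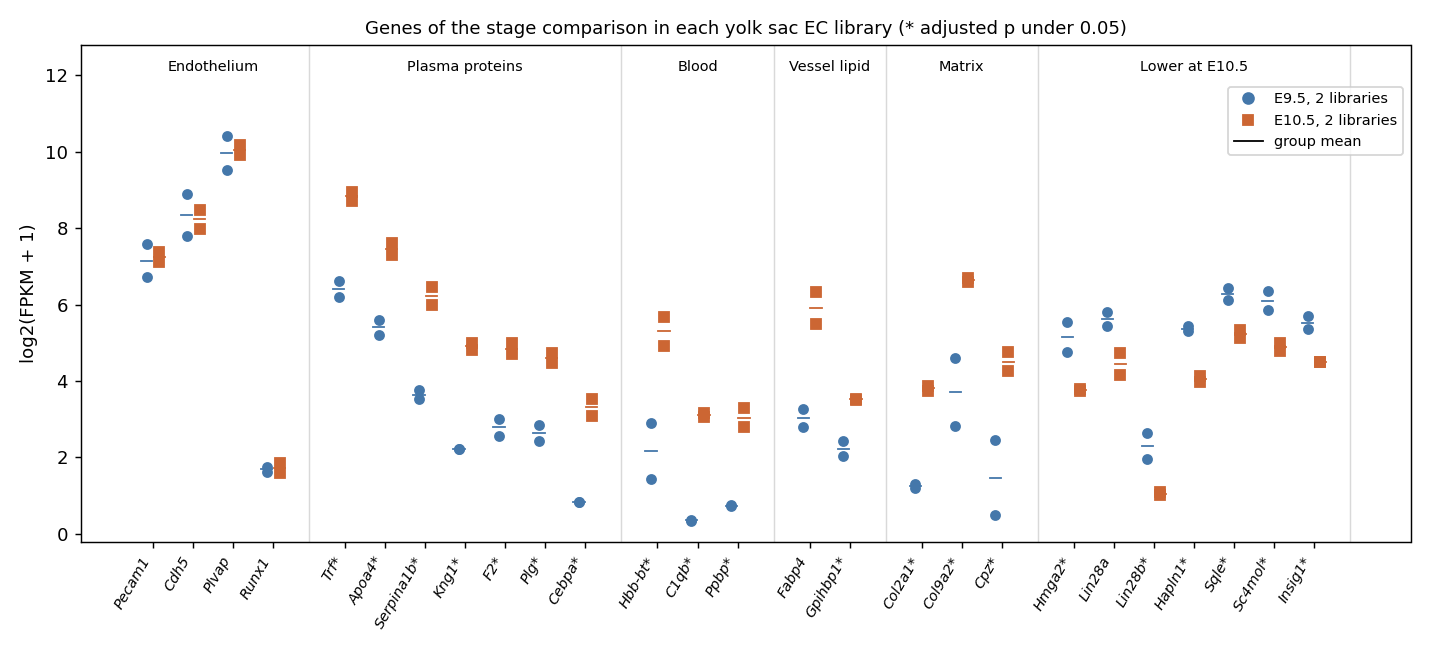
Points give log2(FPKM + 1) of 26 genes in each yolk sac EC library, circles for E9.5, squares for E10.5 and short lines for group means, with an asterisk where the adjusted p was under 0.05. Trf (97.5 and 72.0 against 496 and 418 FPKM) and its neighbours are separated by stage, whereas Pecam1, Cdh5, Plvap and Runx1 overlap.

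Some of the largest single rises were in genes of matrix and smooth muscle, picked by size. Of the 30 tested genes of the basement membrane and matrix list 1 was called, beside 1.15% of all tested genes called higher. Col2a1, a fibrillar collagen of cartilage and embryonic epithelia, rose from 1.30 and 1.48 to 13.7 and 12.3 FPKM (2.55 ± 0.31, adjusted p = 0.00185), a call that remained without any 1 library. Col9a2, a collagen that binds to it, rose from 6.10 and 23.4 to 103 and 96.0 FPKM (2.93 ± 0.55, adjusted p = 0.0235). Actg2, smooth-muscle gamma-actin, rose from 3.25 and 15 to 63.2 and 64.6 FPKM, and Cpz, a secreted carboxypeptidase, from 0.399 and 4.45 to 25.9 and 18.2. In Col9a2, Actg2 and Cpz, E9.5 replicate 1 was several times lower than E9.5 replicate 2, and these 3 calls were lost without it and also without E10.5 replicate 1. Heyl, a Notch target of vessel wall cells, and Sfrp1, a secreted Wnt inhibitor, were called at 1.74 and 1.78. Both calls were also lost without E9.5 replicate 1 or E10.5 replicate 1, that of Heyl without E9.5 replicate 2 as well and that of Sfrp1 without E10.5 replicate 2.

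The same library was lowest for mesenchymal markers. Col1a1, the main chain of collagen I, had 302 and 1213 FPKM at E9.5 and 1817 and 1190 at E10.5, and Acta2, smooth-muscle alpha-actin, had 85.0 and 457 against 496 and 469. None of 22 tested mesenchyme and mesothelium genes passed (19 above 0, median 0.76), and the list summed to 999 and 4331 at E9.5 and to 5085 and 4387 at E10.5. E9.5 replicate 2 was thus at about the E10.5 level. Without E9.5 replicate 1 the list's median was -0.03, and without E9.5 replicate 2 it was 1.86, with 5 genes called higher. The part of mesenchymal RNA in the matrix-gene rises was not tested.

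Among falls, genes of cholesterol synthesis had the most calls of the 41 lists: 7 of 17 tested were called lower and none higher (0.433% of all tested genes were called lower), with a median of -0.56. Sc4mol (Msmo1), a sterol methyl oxidase, fell from 80.3 and 56.8 to 26.5 and 30.8 FPKM (-1.21 ± 0.19, adjusted p = 0.00911). Sqle, squalene epoxidase, fell from 86.0 and 68.1 to 39.4 and 34.1 (-1.04 ± 0.17, adjusted p = 0.0117). In both genes the stages did not overlap.

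Insig1, the sterol-sensing regulator whose own transcription follows the pathway, fell from 50.8 and 40.2 to 21.7 and 21.5 FPKM (-1.03, adjusted p = 0.00846). Idi1, Cyp51 and Nsdhl, further enzymes of the route, fell by 1.27, 0.93 and 0.87 on the log2 scale. With only the yolk sac EC libraries in the fit, 0 genes of the list were called lower, at the same median of -0.56. All 7 calls thus depend on a spread estimated with the other libraries. The count of 7 was 0 without E9.5 replicate 1, 6 without E9.5 replicate 2, 1 without E10.5 replicate 1 and 5 without E10.5 replicate 2; it was 7 with a common median and 1 with each library rescaled to the same summed FPKM. The core TCACNCCAC of the sterol regulatory element, searched on both strands, was in none of the 5 called genes with a RefSeq promoter window (300 bases around the start, GRCm38.p6), against 1.24% of all 32851 windows; no match says only that these letters are not in the window.

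Of the 17 tested genes of the Lin28 and let-7 axis, 16 lay below 0 (median -0.44) and 2 were called lower, against 0.433% of all tested genes. Over all 12252 tested genes the median was -0.13 and 4588 lay above 0. Hmga2, a chromatin protein of fetal growth, fell from 45.9 and 25.9 to 12.7 and 12.4 FPKM (-1.39 ± 0.26, adjusted p = 0.0229). Lin28b fell from 5.23 and 2.89 to 1.02 and 1.13 FPKM (-1.25 ± 0.26, adjusted p = 0.0365). Lin28a, its paralog, was at 42.6 and 54.5 FPKM at E9.5 and at 25.5 and 16.9 at E10.5, with no overlap, and missed the threshold (-1.18 ± 0.30, adjusted p = 0.0776). Igf2bp1 and Igf2bp3, RNA-binding proteins of fetal growth, differed by -0.59 and -0.44 and did not pass. Both calls were lost without E9.5 replicate 1 or without E10.5 replicate 1, and that of Lin28b also without E10.5 replicate 2. Bcat1, a branched-chain aminotransferase, was the member above 0, at 0.21.

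MicroRNAs were not measured in these libraries. The let-7 sequences are shown because matches to their seed lie in the transcripts of Hmga2 and Lin28b, which fell. Matches also lie in those of Lin28a, which missed the threshold, and of Igf2bp1 and Igf2bp3, which did not pass. Capitals mark the seed, bases 2 to 8 of the mature RNA, in RefSeq's mouse sequences.
mmu-let-7a-5p: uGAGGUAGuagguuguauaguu
mmu-let-7b-5p: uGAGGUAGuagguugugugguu
mmu-let-7g-5p: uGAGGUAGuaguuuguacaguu
mmu-miR-98-5p: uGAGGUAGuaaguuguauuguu
These 4 share the seed GAGGUAG, whose complement in a transcript is CTACCTC. In the longest annotated 3′ UTR of each gene (GENCODE M21, GRCm38), CTACCTC occurred 4 times in Hmga2 and 4 times in Lin28b, against at least 1 occurrence in 15.5% and 24.2% of UTRs within 20% of their lengths. Lin28a held it 2 times, against at least 1 occurrence in 14.4% of UTRs within 20% of its length. Igf2bp1 held it 4 times and Igf2bp3 1 time, against 33.7% and 13.3%. The 1st site of each is printed with 15 bases before it and the match in capitals, on the minus strand at chr10:120364224-120364246 for Hmga2, chr10:45381022-45381044 for Lin28b and chr4:134005189-134005211 for Lin28a.
Hmga2 site: gccgacattcaatttCTACCTCa
Lin28b site: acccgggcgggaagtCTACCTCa
Lin28a site: gcacagcctgttgaaCTACCTCa
These 3 matches are followed by an A, unlike the other sites of Hmga2 and Lin28b. So are site 2 of Lin28a, sites 1, 2 and 3 of Igf2bp1 and the site of Igf2bp3. A match is a description of letters, not a sign of regulation.

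Replication and division genes lay below 0 in nearly all members, beyond the median of -0.13 of all tested genes. Only 4588 of all 12252 tested genes lay above 0, so most genes lay below it. Of 23 S-phase genes 21 were below 0 (median -0.41) and 3 were called lower, against 0.433% of all tested genes. Mcm4, a subunit of the replicative helicase, fell from 50.4 and 56.6 to 31.1 and 32.7 FPKM (-0.73 ± 0.15, adjusted p = 0.0324). Cdc6, which loads that helicase, and Uhrf1, which couples methylation to replication, fell by 0.69 and 0.62. All 3 calls were lost with a common median, where the list's median was -0.29, with quantile normalisation, and without either E9.5 library or E10.5 replicate 1, those of Cdc6 and Uhrf1 also without E10.5 replicate 2. All 24 mitosis genes were below 0 (median -0.33, or -0.22 with a common median) and none passed. Cdkn1c, the imprinted inhibitor p57, rose from 149 and 167 to 314 and 274 FPKM (0.89 ± 0.15, adjusted p = 0.0141), the 1 call among 15 tested cell cycle inhibitors, lost without E9.5 replicate 1 or E10.5 replicate 1. Among all tested genes 1.15% were called higher.

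Hapln1, which links hyaluronan to proteoglycans, fell from 42.0 and 38.6 to 14.6 and 16.5 FPKM (-1.32 ± 0.17, adjusted p = 0.00288), and the call remained without any 1 library. Col23a1, a membrane collagen, fell from 5.46 and 8.89 to 3.24 and 1.40, a call lost without any 1 of the 4 libraries. Of the 7 largest falls 5 were unnamed gene models with Gm symbols, whose values can draw on reads of their parent genes. Snhg9, a small nucleolar RNA host gene, was at 3.83 and 10.1 FPKM at E9.5 and listed at 0 in both E10.5 libraries (adjusted p = 0.00846), a call lost without E10.5 replicate 1. It passed the filter through E9.5 only and could only be called lower. Snhg9 was also listed at 0 in every HE library and in both E9.5 embryo EC libraries, so the spread behind its p-value draws largely on values of 0. By annotated type, 44 of the 53 lower and 140 of the 141 higher genes were neither pseudogenes nor small RNAs.

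**Figure D4:**
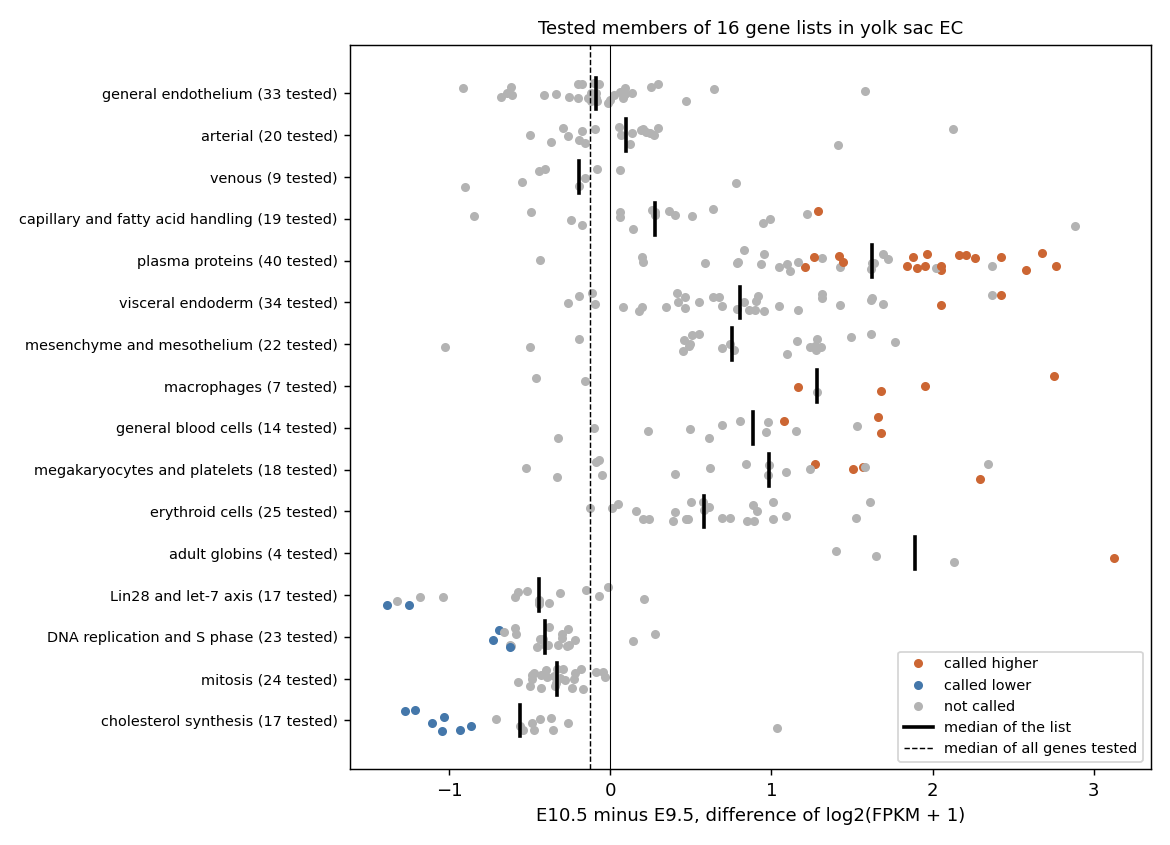
Each point is a tested member of 1 of 16 gene lists, placed by its E10.5 minus E9.5 difference of log2(FPKM + 1), with black ticks for list medians and a dashed line at the median of all tested genes (-0.13). Plasma protein (18 of 40, a list written after values had been seen), macrophage (4 of 7, all tested through E10.5 only) and megakaryocyte (4 of 18) calls lie to the right. Of these 18 megakaryocyte genes 6 were tested through 1 stage only. Cholesterol synthesis (7 of 17) calls lie to the left, and general endothelium (0 of 33) lies around the dashed line.

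Beside the plasma proteins 41 lists were examined, and 17 of them held at least 1 called gene. Immediate early genes, which tissue handling can switch on, had no call: 21 of 22 lay above 0 (median 0.50), and their summed level was 559 and 824 at E9.5 and 798 and 1112 at E10.5. BMP and TGF-beta, VEGF and Tie, interferon, retinoic acid, glycolysis, oxidative phosphorylation and clustered Hox lists had no call. Serpinf1, an anti-angiogenic secreted serpin, rose from 11.3 and 10.4 to 22.0 and 21.6 FPKM (0.94 ± 0.17, adjusted p = 0.0178), a call lost without either E9.5 library or E10.5 replicate 1. Of the 141 higher genes 105 and of the 53 lower genes 41 were in no list. Gsn, the actin-severing protein gelsolin, was called at 1.99, and the call remained with any 1 of the 16 libraries left out.

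The site comparison asked whether the stage change of yolk sac EC differed from that of embryo EC; 40 genes passed (0.326% of those tested), 34 with a yolk sac minus embryo difference above 0 (0.278%) and 6 with one below 0 (0.049%), and 26 of the 40 were also called in the stage comparison. The yolk sac EC difference was the larger in size in 25 of the 34 and in 1 of the 6. Genes entered by their level in yolk sac EC, so those present only in embryo EC were not tested. With the filter applied over all 16 libraries the split was 48 above 0 and 23 below 0, and with no filter 37 and 20. Serpina1a differed between stages by 2.77 in yolk sac EC and by -0.11 in embryo EC, a difference of 2.88 ± 0.32 (adjusted p = 0.00718). Ttc36 differed by 2.98 ± 0.32, Kng1 by 2.78 ± 0.39, Apoa4 by 2.74 ± 0.38 and Cebpa by 2.54 ± 0.38. These genes were low in embryo EC: Serpina1a was at 0.154 and 0.0977 FPKM there at E9.5 and at 0 and 0.0851 at E10.5. Ppbp (2.28 ± 0.37) and Thbs1 (2.42 ± 0.43) differed likewise.

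Trf did not show this difference. It was at 5.24 and 5.24 FPKM in embryo EC at E9.5 and at 20.2 and 13.7 at E10.5, a stage difference of 1.5 beside 2.43 in yolk sac EC (adjusted p of the difference = 0.445). The stage differences of Hbb-bt, Fabp4 and Lin28a were 2.20, 1.86 and -1.91 in embryo EC, and those between the sites did not pass (adjusted p from 0.589 to 0.754). A missed threshold does not show that the sites changed alike.

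Several of the largest site differences came with lower E10.5 values in embryo EC. The summed visceral endoderm markers were also lower there, at 1045 and 1331 FPKM at E9.5 and 330 and 438 at E10.5. Mesenchyme markers summed to 1141 and 2605 and then to 338 and 771. The part of RNA from other layers in these site differences was not tested. Car4, a carbonic anhydrase on capillary surfaces, was at 107 and 129 FPKM at E9.5 and 153 and 98.8 at E10.5 in yolk sac EC, and at 72.3 and 54.9 and then 4.12 and 6.49 in embryo EC (3.43 ± 0.51, adjusted p = 0.0194). Krt7, a keratin of simple epithelia and mesothelium, differed between stages by 1.27 in yolk sac EC and by -2.47 in embryo EC (3.74 ± 0.53, adjusted p = 0.0167). Marc1, a molybdenum enzyme, and Rarres2, the chemoattractant chemerin, differed by 3.55 and 3.44. In the other direction Rhox9, a homeobox gene of the germ line and placenta, was at 3.50 and 2.57 and then 1.96 and 3.42 FPKM in yolk sac EC and at 2.72 and 1.94 and then 22.1 and 14.2 in embryo EC. The calls of Mest and Copg2 rest on values listed at 0 in whole libraries and are given only as such. With the 8 EC libraries alone no gene passed in limma's test of this difference (1293 at an unadjusted p under 0.05), and none passed without E9.5 replicate 1 of yolk sac EC.

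**Figure D5:**
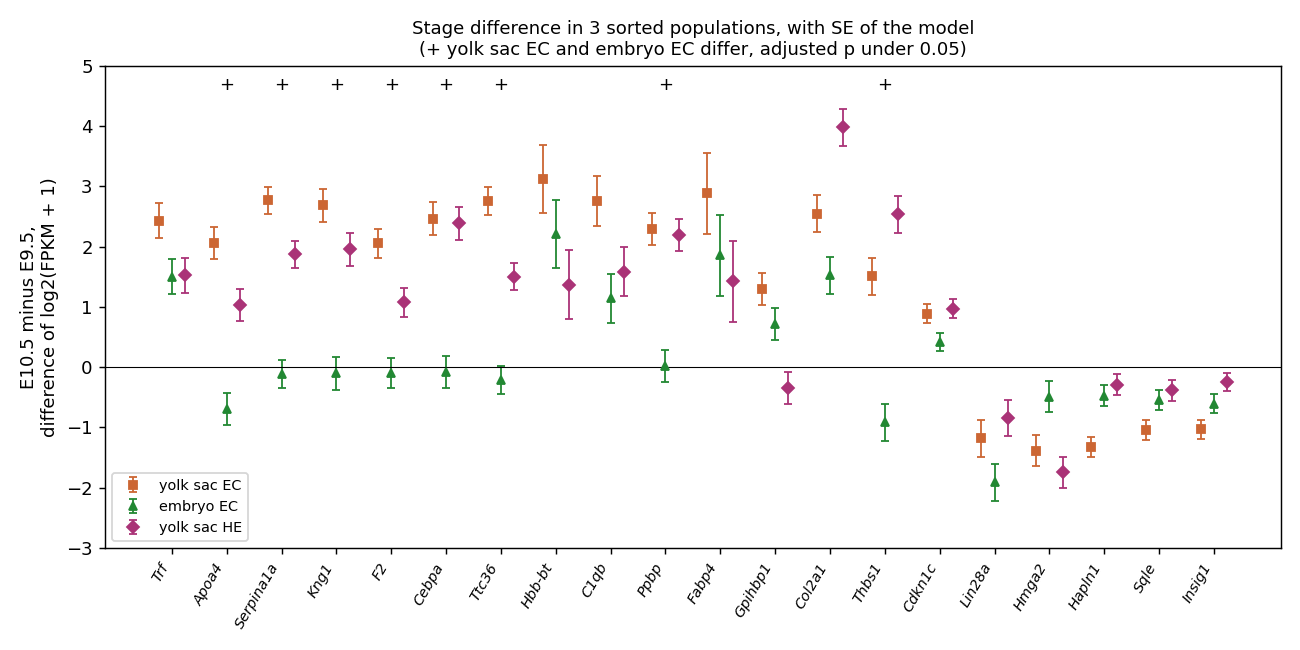
Points give the E10.5 minus E9.5 difference of log2(FPKM + 1) for 20 genes in yolk sac EC, embryo EC and yolk sac HE, with bars of 1 SE of the model and a plus sign where yolk sac EC and embryo EC differed at an adjusted p under 0.05. Serpina1a stands at 2.77 in yolk sac EC, -0.11 in embryo EC and 1.87 in yolk sac HE.

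Set against yolk sac HE, 1 gene passed, Col1a1 (0.00816% of those tested), and that call rests on values listed at 0 in both E10.5 HE libraries. Without adjustment 1226 genes (10%) had a p under 0.05. The stage differences in HE were 1.53 for Trf, 1.87 for Serpina1a, 1.96 for Kng1 and 2.38 for Cebpa. The 2 E10.5 HE libraries were low in endothelial genes, whose summed FPKM was 1337 and 445 in them against 3776 to 6914 in yolk sac EC. Of the 141 genes called higher in yolk sac EC 131 (92.9%) had a difference above 0 in HE and 73 (51.8%) in embryo EC, beside 34.3% and 47.2% of all tested genes. The cholesterol list had a median of -0.25 in HE and of -0.60 in embryo EC, beside -0.56 in yolk sac EC. The visceral endoderm sum in HE was 11361 and 9639 at E9.5 and 10147 and 16624 at E10.5.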

How the data were processed

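RNA-seq of sorted mouse cells was deposited by the authors as a table of FPKM values per gene, the unit analysed here. Per the submitters' processing notes, Cufflinks, featureCounts and the mm9 build were used; the sources used here give neither versions nor read counts, and absolute depth is unknown. Per the labels' protocols, RNA was column-purified after sorting, with DNase on the column or afterwards. Differences were taken on log2(FPKM + 1), which understates changes of low genes, and tested with limma 3.58.1 in R 4.3.3: an intensity trend, 1 mean for each of 8 groups of 2 over all 16 libraries, two-sided, with Benjamini-Hochberg adjustment over 12252 genes, those reaching an FPKM of 1 in 2 or more of the 4 yolk sac EC libraries, called at an adjusted p under 0.05. Standard errors (SE) are the model's. The fit was tested on simulated data.

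Members and gene lists were chosen with earlier results of these data known, and the plasma protein list after the values were seen. Named are Trf, Fabp4, Lin28a and Hbb-bt, the 12 largest called rises and falls whose higher group averaged 5 FPKM or more, up to 4 genes per list, the largest differences between populations, and the sort and globin genes; others were chosen after their values were seen. Alternatives were other pseudocounts, filters, scalings, library sets and weights, a replicate block, and leaving out each library. Sequences are RefSeq's (GRCm38.p6) and, for UTRs, GENCODE M21's, none of them used for coordinates of the deposited table. Some items are not reported here.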

Additional observations from a re-analysis of the deposited data

Results flagged for a closer look

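The stage difference of yolk sac EC was tested against that of embryo EC, and 21 of the genes named here passed at an adjusted p under 0.05 in limma's test. The difference, yolk sac minus embryo on the log2 scale, was 2.88 for Serpina1a, 2.43 for Serpina1b, 2.98 for Ttc36, 2.78 for Kng1, 2.21 for Kng2, 2.74 for Apoa4, 2.54 for Cebpa and 2.15 for F2. For the enzymes Hgd and Haao it was 2.28 and 2.13, and for Gsn 2.22. It was 2.28 for Ppbp and 2.42 for Thbs1. Among genes lower at E10.5 in embryo EC it was 3.74 for Krt7, 3.55 for Marc1, 3.44 for Rarres2 and 3.43 for Car4. It was -2.65 for Rhox9 and -3.62 for Snhg9, with Snhg9 listed at 0 in both E10.5 yolk sac EC and both E9.5 embryo EC libraries. The values of -16.14 for Mest and -12.99 for Copg2 rest on libraries listed at 0. Against yolk sac HE the value of 11.65 for Col1a1 rests on 0 in both E10.5 HE libraries.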

How the results depend on the processing

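No called gene changed sign, but the split of stage calls, 141 higher and 53 lower, became 186 and 315 without E10.5 yolk sac EC replicate 2, and the medians of the endothelium and mesenchyme lists changed sign without an E9.5 yolk sac EC library. The 194 genes called between stages became 54 with a pseudocount of 0.1, 84 with each library rescaled to the same summed FPKM, 72 with library quality weights, 34 with the 4 libraries alone and 462 without the 2 E10.5 yolk sac HE libraries. Leaving out 1 library gave 29 to 501, with 1 library of a group then assumed to vary like the other groups. The 40 genes of the site comparison became 13 with a pseudocount of 0.1, 71 with the filter over all 16 libraries, 76 with a common median, 118 without the 2 HE libraries and 0 with the 8 EC libraries alone (limma, 1293 at an unadjusted p under 0.05). Leaving out 1 library gave 0 (1024 unadjusted, without E9.5 yolk sac EC replicate 1) to 190. An alternative chosen after seeing the data, without pseudogenes and small RNAs, gave 60 there and 206 between stages. The 1 gene of the HE comparison became 2 with a pseudocount of 0.1, 5 with no filter, 2 with the 8 yolk sac libraries, and 1 to 232 without 1 library. With a replicate block the counts were 198, 37 and 1, though the labels do not pair the numbers. The replicate 1 minus replicate 2 differences at E9.5 and those at E10.5 correlated at 0.136 over the tested genes. The cause of these moves was not tested. Depth limits the low genes, whose counts are unknown.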
